A study of Mus musculus with 8 samples.

Results

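The 41 genes described here carry out the end of the cell cycle: they bring a cell into mitosis, attach and move its chromosomes, release them at anaphase and cut the cell apart at cytokinesis. They were listed by name for known roles in mitosis and cytokinesis, with earlier results of these counts known, so the p-values of single members are not those of a list drawn up blind. All 41 were found under their listed symbols among the 26608 genes of the count tables, 15162 of them with a count somewhere in the 8 libraries. All 41 also passed the filter on low counts that left 11779 genes for testing.

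SAGE, which counts short tags from the ends of transcripts, had been run on neural tube of mouse embryos of the FVB strain at gestational day 8.5. The tissue had been cut by laser from frozen sections on either side of closure site 1, the place where the neural folds first meet: open neural tube directly in front of it and closed neural tube directly behind it. The dams were either diabetic or normal. How diabetes arose is not stated, and the labels name no allele or transgene in any group. This gives 4 groups of 2 libraries, named here by the numbers in their titles: normal open (09 and 10), normal closed (11 and 12), diabetic open (13 and 14) and diabetic closed (15 and 16). The number of embryos behind a library is not stated, nor whether libraries share an embryo or a litter. The p-values therefore cover the spread among the libraries alone. Part of that spread may be technical, which here includes the tissue that the laser took, and in the diabetic pairs all of it may be. The open and the closed tissue also lie at different axial levels, which cannot be told apart from closure itself.

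Entry into mitosis is driven by the kinase Cdk1 bound to cyclins A and B, with the Polo and Aurora kinases. The spindle checkpoint then holds the anaphase-promoting complex, a ubiquitin ligase, in check until every kinetochore has attached to spindle microtubules, after which cyclin B is destroyed and the chromatids part. The early neural tube is a proliferating epithelium whose cells divide at the apical surface. Transcripts of these genes accumulate late in the cycle, so that in a whole tissue their level depends on how many cells are near mitosis. In such bulk samples fewer dividing cells and less RNA per dividing cell cannot be told apart.

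Library totals ran from 5041586 to 16655583 counts. The 12 neural progenitor markers looked at summed to 4280 to 5690 CPM (counts scaled to the library total) over the 8 libraries, with 1 of them, Nkx6-1, at 0 throughout. Other tissues varied more. Mesoderm and mesenchyme markers summed to 1724 CPM in diabetic open library 13 and to 152 to 946 CPM in the other 7, and endothelial markers to 316 CPM there and 26.4 to 137 CPM elsewhere. Heart markers summed to 109 CPM in library 13 and to at most 6.17 CPM elsewhere. Primitive blood markers reached 925 CPM in library 13 and 1010 CPM in library 14, both diabetic open, and at most 209.6 CPM elsewhere, with Hbb-y at 0 throughout. Sox2, 1 of the 12 neural progenitor markers, stood at 30.9 CPM in library 13 and at 287 to 549.8 CPM in the others. The sum of the 12 markers in library 13 was 4438 CPM, within the range of the other libraries. Xist, the RNA of the inactive X chromosome, stood at 301 and 297 CPM in normal libraries 10 and 12. Elsewhere it was at most 4.27 CPM, so that diabetic and normal dams also differ in the share of libraries with Xist. Ddx3y, a Y chromosome gene, stood at 0.882 and 0.444 CPM in libraries 10 and 12 and at 188 to 274 CPM in the others. The paired libraries of each normal group therefore did not come from the same embryos. The part that these differences have in the results was not tested. Values without libraries 10 and 12 or without libraries 13 and 14 are given beside some of the results.

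Together the 41 genes held a steady share of the transcriptome. Their summed level was 9337 ± 712 CPM (SD, n = 8 libraries), or 0.934% of all tags, and ranged from 7944 CPM in normal closed library 12 to 10234 CPM in normal closed library 11. For diabetic dams it was 9323 ± 454 CPM and for normal dams 9352 ± 987 CPM. Closed tissue had 9229 ± 1050 CPM and open tissue 9445 ± 220.0 CPM (SD over 4 libraries). The 2 normal closed libraries thus stood at either end of the range, and the groups overlapped in both comparisons. Depth did not limit this sum, which rested on 50007 counts in the shallowest library and 153665 in the deepest.

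**Figure D1:**
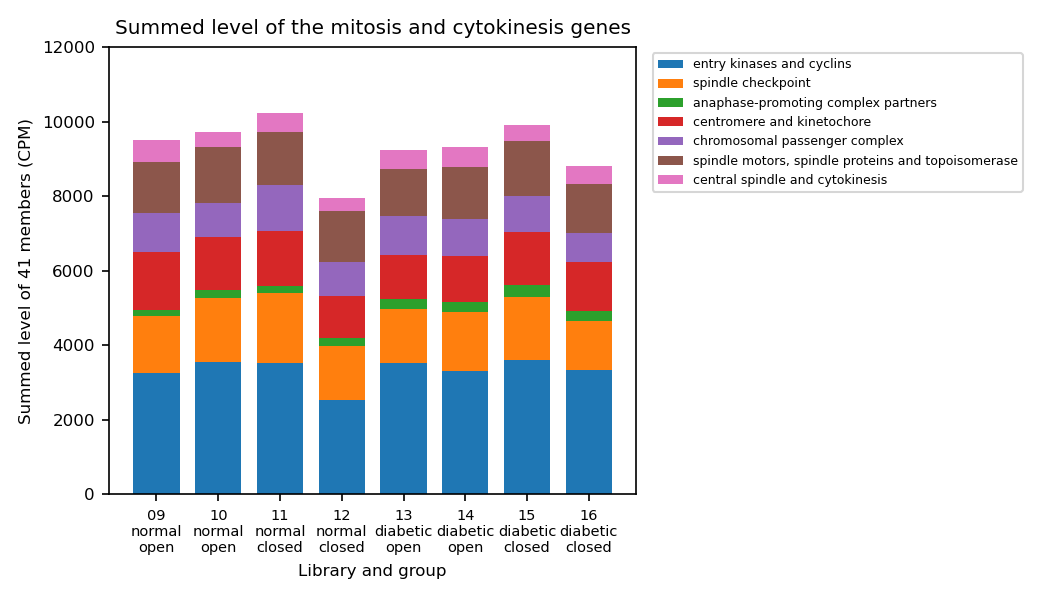
Summed level of the 41 mitosis and cytokinesis genes in each of the 8 libraries, in CPM of the library total, with the colours dividing each bar among 7 roles. The sum lies between 7944 CPM in library 12 and 10234 CPM in library 11, and the order of the roles by size is led by the entry kinases and cyclins in every library.

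SAGE counts tags and not fragments along the transcript, so levels need no scaling by length. A level still depends on how well a gene's tags were captured, read and assigned, which is unknown here. Levels of different genes are therefore compared as tags and not as transcripts. A few members made up most of the sum. Cdk1 was the most abundant, at 1484 CPM on average, followed by the checkpoint kinase gene Bub1b (1215 CPM), the cyclin A gene Ccna2 (966 CPM) and Birc5, which encodes survivin (885 CPM). These 4 held 48.7% of the summed level, and with the kinesin gene Kif15 (715 CPM) and the centromeric histone gene Cenpa (554 CPM) 6 members held 62.3%. At the other end, Ccnb2 (10.6 CPM), Nuf2 (10.4 CPM), Nek2 (9.45 CPM) and Cdca8 (1.75 CPM) averaged under 11 CPM. Proteins of 1 complex were not represented by equal tag levels: Birc5, Incenp, Aurkb and Cdca8, the 4 components of the chromosomal passenger complex, averaged 885, 60.5, 40.2 and 1.75 CPM.

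What a SAGE library can count of a gene is set by the last CATG, the site cut by the anchoring enzyme of such kits, in each of its transcripts. The tags below were predicted for this work from the GENCODE M21 transcripts as that CATG and the bases after it, 27 in all, and the CATG is in capitals. They are shown for the most abundant members and for members that the comparisons below turn on. The deposited tables give counts per gene and no tags, so which of a gene's tags was read is unknown.

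Cdk1, tag 1: CATGgattcttcactcgttaagagtta
Cdk1, tag 2: CATGtaaatattattccatatgaattt
Cdk1, tag 3: CATGtcccaagacagggacgactcaat
Bub1b: CATGtactctcctttcactgtgtattt
Birc5: CATGggtaagtgtggttatatgtgttt
Ube2c, tag 1: CATGacatctggtgacaaaggaatctc
Ube2c, tag 2: CATGtcaaaggcagccttgaactctag
Kif11: CATGtatacggttcagagtgatgtggt
Prc1, the tag of 5 transcripts: CATGgagtcagcaactttgcacatcta
Prc1, a tag of 1 transcript: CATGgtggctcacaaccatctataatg

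Of the 41 members, 13 had a single predicted tag, among them Bub1b, Birc5 and Kif11, and 28 had 2 or more because their annotated transcripts end differently. For 35 members no predicted tag occurred in another gene. The other 6 were Ccnb1, Cenpf, Ndc80, Nuf2, Zwint and Prc1. The sequence of the second Prc1 tag printed above also occurred, at any CATG, in transcripts of 15 other genes. The tag held by 5 Prc1 transcripts was free of other genes. One Cenpf tag was shared with 20 other genes, and Ccnb1 shared a tag with its pseudogene Ccnb1-ps and 2 other loci. How tags that fit several genes were counted is not given in the sources used here, so counts of these 6 are less certain than those of the others.

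Variation between libraries was set against that of all genes tested, and then against genes of like level. The coefficient of variation over the 8 libraries had a median of 26.7% for the members (9.04% to 79.2%) and of 52.8% for all 11779 genes tested. Among genes averaging at least 50 CPM the medians were 22.1% for 27 members and 24.6% for 3172 genes. Ccna2 was the steadiest member, with 981, 971, 1067, 788, 1021, 965, 1032 and 903 CPM in libraries 09 to 16. Bub1b (12.4%) stood at 1180, 1306, 1482, 1174, 1055, 1217, 1298 and 1005 CPM, and Birc5 (15.1%) at 934, 799, 1145, 798, 945, 893, 873 and 695 CPM. In all 3 of these genes the groups overlapped in both comparisons. The most variable were Cdca8 (79.2%), Nek2, a centrosomal kinase gene (78.3%), and Nuf2, a subunit of the Ndc80 complex that binds microtubules (68.5%), which were also the 3 least abundant.

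The 2 libraries of a group differed by a median of 0.41 on the log2 scale over the members in normal open tissue, 0.50 in normal closed, 0.32 in diabetic open and 0.30 in diabetic closed tissue. The same medians over all genes tested were 0.79, 0.66, 0.71 and 0.46. In the normal open pair 7 members differed by more than 2-fold, in the normal closed pair 8, in the diabetic open pair 3 and in the diabetic closed pair 1, of 41 each. Over all genes tested the shares past 2-fold were 43.3%, 36%, 40.2% and 22.7% in the same order. All genes tested had a lower median level than the members, 15.5 against 82.7 CPM. Neither these shares nor the medians are matched for level.

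**Figure D2:**
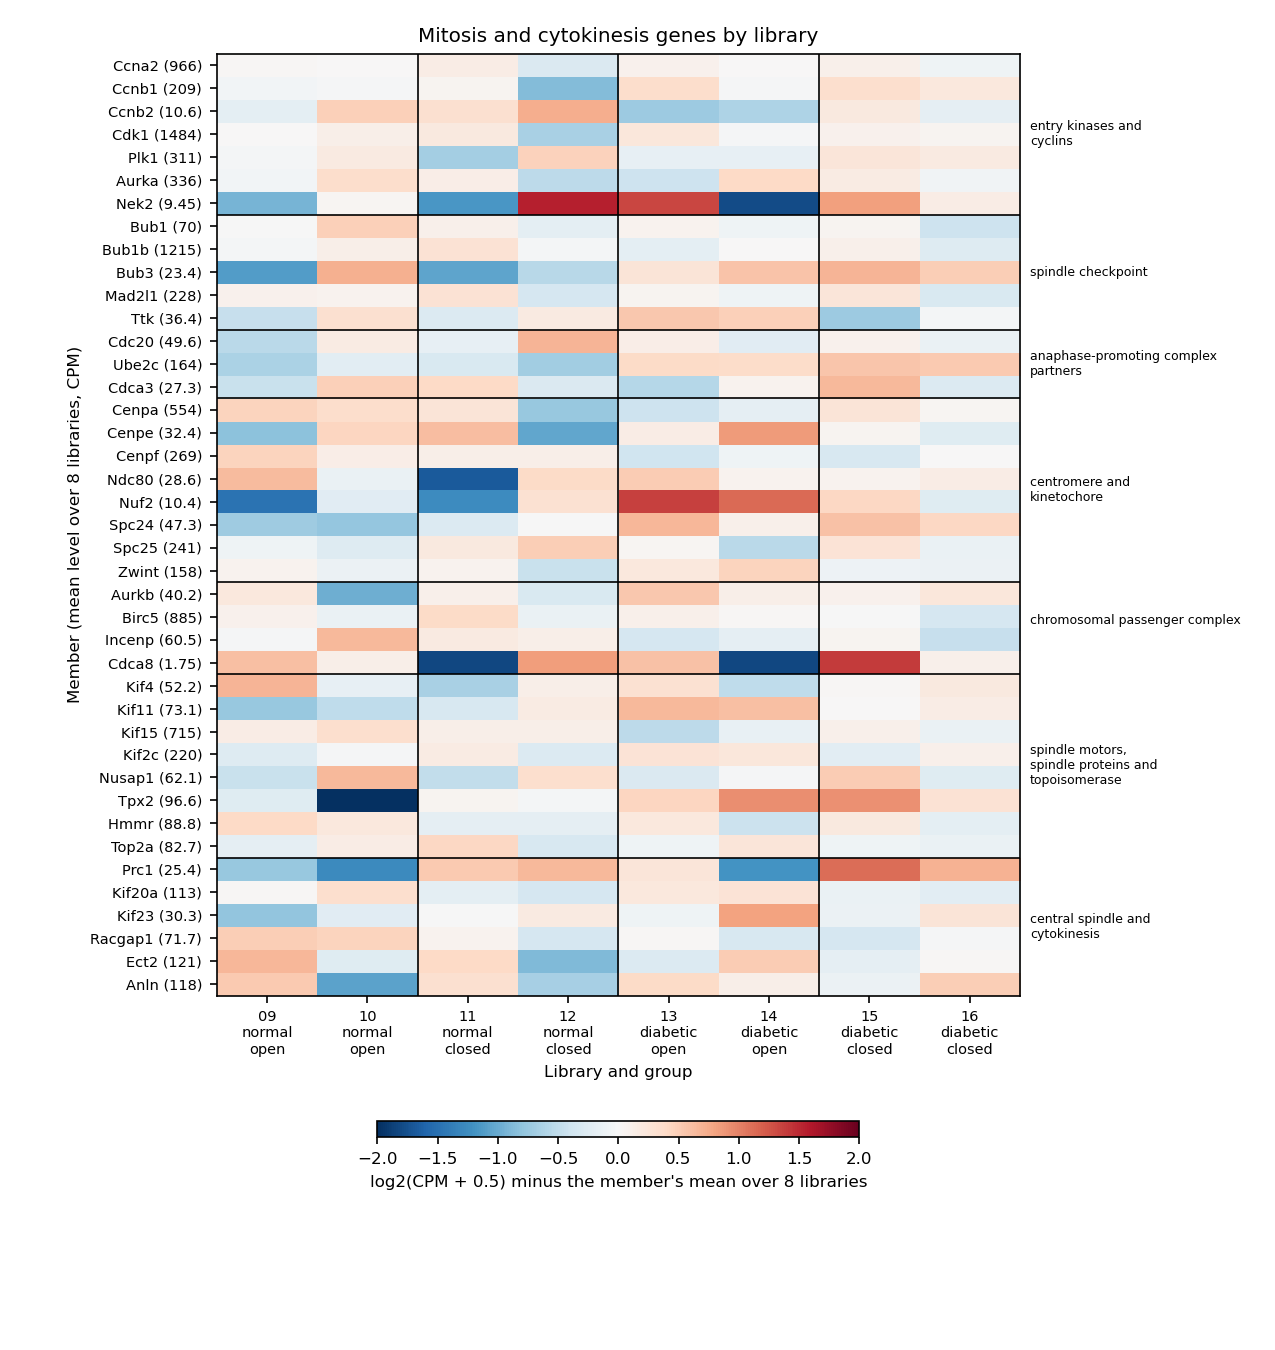
Level of each member in each library as log2(CPM + 0.5) minus the member's mean over the 8 libraries, with members in order of role and their mean level in CPM in parentheses, and with colours that stop at 2 above or below that mean. Strong colours sit in the rows of low members such as Nek2, Nuf2 and Cdca8, while Cdk1, Bub1b, Ccna2 and Birc5 stay pale.

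Library 12, normal closed, stood lowest of the 8 for 14 members and highest for 5. The low ones included Cdk1 (938 CPM, with 1436 to 1704 CPM elsewhere), Ccna2, Ccnb1 (112 CPM, with 196 to 261 CPM elsewhere), Aurka, Cenpa (315 CPM, with 399 to 724 CPM elsewhere) and Ect2. The high ones were Ccnb2, Plk1, Nek2, Cdc20 and Spc25, so the cyclin B genes lay at opposite ends. Plk1, the Polo kinase, stood at 417 CPM in library 12 and at 189 CPM in its partner, library 11.

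The entry kinases and cyclins were the largest group of members, with a summed level of 3326 ± 348 CPM (SD, n = 8). Cdk1 stood at 1464, 1581, 1679, 938, 1704, 1436, 1550 and 1523 CPM in libraries 09 to 16. Apart from library 12 they lay between 1436 and 1704 CPM, with the dams and the regions mixed. The cyclin B genes were unequal in tag level: Ccnb1 averaged 209 CPM and Ccnb2 10.6 CPM. Aurka, the kinase of centrosomes and spindle poles, averaged 336 CPM, against 40.2 CPM for Aurkb, the kinase of the passenger complex. Spindle checkpoint members summed to 1573 ± 181 CPM, most of it from Bub1b, and its partner gene Bub3 stood at 23.4 CPM on average. Centromere and kinetochore members summed to 1340 ± 142 CPM, the passenger complex to 988 ± 138 CPM, spindle motors, spindle proteins and topoisomerase to 1390 ± 79.9 CPM, and central spindle and cytokinesis members to 479 ± 76.4 CPM (SD, n = 8 each). The 3 members grouped here with the anaphase-promoting complex, Ube2c, Cdc20 and Cdca3, summed to the least, 241 ± 56.4 CPM.

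The 4 subunits of the Ndc80 complex, which links kinetochores to microtubules, differed widely in tag level. Spc25 averaged 241 CPM, Spc24 47.3 CPM, Ndc80 28.6 CPM and Nuf2 10.4 CPM. Ndc80 and Nuf2 each hold a predicted tag that another gene shares. Cdca8, which encodes borealin, was the only member without a count in some library. It had 22, 8, 0, 18, 36, 0, 21 and 10 counts in libraries 09 to 16. The 0 in library 11 allows a level of up to 0.534 CPM and that in library 14 up to 0.358 CPM, from 3 counts each, which covers counting error only.

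Closed tissue was first set against open tissue, over both kinds of dam, to ask whether cells behind the closure site carry more or fewer mitotic transcripts than those in front of it. By edgeR's quasi-likelihood test 0 of the 41 members and 0% of the 11779 genes tested had an adjusted p (Benjamini-Hochberg) below 0.05, and 391 genes had an unadjusted p below 0.05. The members' log2 fold changes, closed minus open, centred on -0.00, with 19 above and 22 below 0, and the median over all genes was 0.07. They lay within 0.5 of 0 for 37 of 41 members, against 57.5% of all genes, and within 1 for 40, against 76.6%. The median standard error was 0.27 for the members and 0.67 for all genes. The members' median level was 82.7 CPM against 15.5 CPM for all genes, so these shares are not matched for level.

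Prc1, which bundles antiparallel microtubules in the central spindle, had the largest difference between regions. It stood at 31.2, 34.1, 47 and 35 CPM in the 4 closed libraries (11, 12, 15 and 16) and at 12.5, 8.64, 25.6 and 9.07 CPM in the 4 open ones (09, 10, 13 and 14). All closed libraries lay above all open ones, and among the open ones library 13 was the highest. The log2 fold change was 1.47 (SE 0.44, 95% interval 0.50 to 2.43), with an unadjusted p = 0.00648 and an adjusted p = 1 by edgeR. DESeq2 gave an adjusted p of 0.441. It was 1.66 (SE 0.66) within normal and 1.28 (SE 0.65) within diabetic dams, and the test of the difference between these gave an unadjusted p of 0.686 by edgeR.

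Kif20a, a kinesin of the same central spindle, lay the other way. It stood at 97.8, 88.5, 102 and 96.8 CPM in the closed libraries and at 114, 141, 129.7 and 135 CPM in the open ones, again without overlap. This gave a log2 fold change of -0.38 (SE 0.19, 95% interval -0.81 to 0.04, unadjusted p = 0.0712, adjusted p = 1, edgeR). Spc25 stood at 271, 331, 286 and 215 CPM in closed and 221, 198, 243 and 162 CPM in open tissue, where closed library 16 lay below 2 open libraries. Its log2 fold change was 0.46 (SE 0.21, unadjusted p = 0.0471, adjusted p = 1, edgeR). Without libraries 10 and 12 the unadjusted p-values were 0.0245 for Prc1 and 0.177 for Spc25, and without libraries 13 and 14 they were 0.0128 and 0.0926.

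Thus 2 of 41 members, Prc1 and Spc25, had an unadjusted p below 0.05 on the closed side, where 2.31% of all genes did, and 0 on the open side, where 1.01% did. Groups without overlap were found for 1 member with closed higher, Prc1, against 1.68% of all genes, and for 1 with closed lower, Kif20a, against 1.07%. Neither set of shares is matched for level. DESeq2 called 9 genes and limma-voom 0, none of them members. For several abundant members the interval of the regional difference was narrow. Cdk1 differed by -0.08 (95% interval -0.50 to 0.34), Ccna2 by -0.01 (-0.36 to 0.34), Bub1b by 0.10 (-0.26 to 0.46) and Birc5 by 0.01 (-0.40 to 0.42) on the log2 scale. The intervals for Nek2 (-1.45 to 2.77) and Cdca8 (-3.93 to 4.95) were wide. Ttk, a checkpoint kinase, had the lowest value, -0.39 (-1.18 to 0.40). After the members above, Spc24 (0.40, unadjusted p = 0.188) and Zwint, a kinetochore scaffold (-0.25, unadjusted p = 0.239), came next by p on either side (edgeR).

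The remaining central spindle and cytokinesis members lay on both sides of 0, with standard errors near or above the size of the differences. Kif23 and Racgap1, which form the centralspindlin complex, differed by 0.16 (SE 0.39) and -0.27 (SE 0.25), the RhoA activator Ect2 by -0.28 (SE 0.33) and the ring scaffold Anln by -0.01 (SE 0.36).

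**Figure D3:**
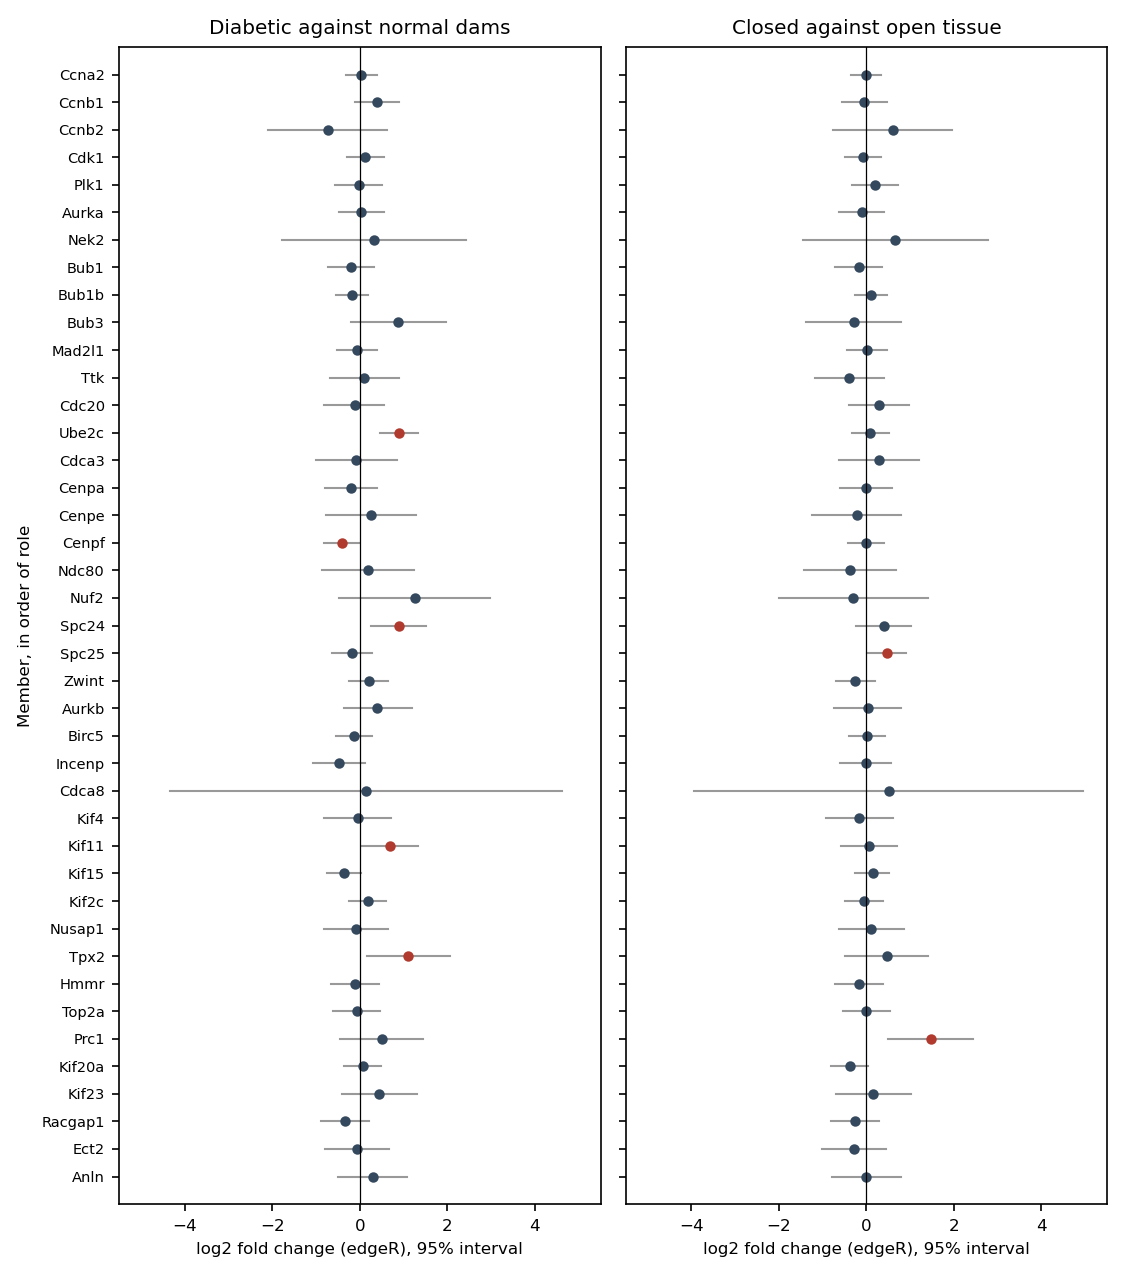
Log2 fold change of each member with its 95% interval by edgeR, for diabetic against normal dams (left) and closed against open tissue (right), with members in order of role and red marking an unadjusted p below 0.05. Most members lie close to 0 in both panels, and Ube2c, Spc24, Tpx2, Kif11 and Cenpf on the left and Prc1 and Spc25 on the right are red.

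Diabetic dams were then set against normal dams, over both regions, to ask whether maternal diabetes goes with a change in mitotic transcripts. By edgeR 0 of 41 members and 0% of all genes had an adjusted p below 0.05, and 536 genes had an unadjusted p below 0.05. The members' log2 fold changes, diabetic minus normal, had a median of 0.03, with 22 above and 19 below 0, and the median over all genes was 0.04. They lay within 0.5 of 0 for 34 of 41 members (54.6% of all genes) and within 1 for 39 (74.3%). These shares, too, are not matched for level.

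Ube2c separated the dams most clearly. It encodes the E2 enzyme that starts ubiquitin chains on substrates of the anaphase-promoting complex. Diabetic dams gave 202, 201, 229 and 222 CPM (13 to 16), and normal dams 100.2, 134, 126 and 95.5 CPM (09 to 12). The lowest diabetic library lay well above the highest normal one, in open as in closed tissue. The means were 214 ± 14.3 and 114 ± 18.8 CPM (SD over 4 libraries). The log2 fold change was 0.89 (SE 0.19, 95% interval 0.47 to 1.32), or 1.86-fold. The unadjusted p was 0.000744 and the adjusted p over all genes 0.974 by edgeR. DESeq2 gave an adjusted p of 0.0278, which made Ube2c the 1 member among the 37 genes, or 0.314% of those tested, that DESeq2 called. limma-voom gave an adjusted p of 0.476 and called 0 genes. In simulated data for this comparison, with changes planted in some genes, DESeq2 made 70 false calls, edgeR 8 and limma-voom 3. Of genes with a planted log2 change of 1, DESeq2 recovered 25.4%, edgeR 7.04% and limma-voom 4.23%. Planted changes loosen the adjusted threshold, so these false calls cannot be set against the 37 genes called here. The changes were planted in genes drawn at random from all but the lowest levels. By edgeR the median SE was 0.67 over all genes tested and 0.27 for the members. The shares recovered are therefore not those of Ube2c or of the members. For Ube2c the difference between dams was 0.78 (SE 0.29) in open and 1.01 (SE 0.29) in closed tissue. The test of the difference between these gave an unadjusted p of 0.578 by edgeR. The log2 fold change of Ube2c between dams was 0.89 without libraries 10 and 12. Without libraries 13 and 14, which leaves closed tissue alone to compare the dams, it was 1.03.

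The substrate adaptor Cdc20, with which Ube2c works, did not separate the dams. It stood at 52.7, 41.2, 51.4 and 44.2 CPM for diabetic dams and 33, 54.3, 42.9 and 77.4 CPM for normal dams. Its log2 fold change was -0.12 (SE 0.31), and that of Cdca3 was -0.08 (SE 0.42). The substrates Ccnb1 and Ccna2 differed by 0.40 (SE 0.23) and 0.03 (SE 0.16).

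Tpx2, which activates Aurka on the spindle, stood at 111, 157, 155 and 99.9 CPM for diabetic dams and 69.3, 15.7, 84.9 and 79.8 CPM for normal dams. The groups did not overlap, and normal open library 10 was far below the other 7. By edgeR the log2 fold change was 1.11 (SE 0.43, 95% interval 0.16 to 2.07, unadjusted p = 0.0262, adjusted p = 0.999, edgeR). Without library 10 it was 0.74, and without libraries 10 and 12 it was also 0.74. Without libraries 13 and 14 it was 0.63 (unadjusted p = 0.34).

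Spc24, a subunit of the Ndc80 complex, stood at 70.5, 47.8, 67.2 and 59.2 CPM for diabetic dams and 27, 25.8, 36.7 and 44.4 CPM for normal dams, with no overlap and a gap of a few CPM between library 14 and library 12. The log2 fold change was 0.89 (SE 0.29, 95% interval 0.25 to 1.52, unadjusted p = 0.0104, adjusted p = 0.999, edgeR). It was 0.64 (unadjusted p = 0.145) without libraries 13 and 14. The direct partner of Spc24, Spc25, differed by -0.17 (SE 0.20), and the other subunits Ndc80 and Nuf2 by 0.18 (SE 0.48) and 1.25 (SE 0.78), and by edgeR Spc24 alone of the 4 subunits had an unadjusted p below 0.05. By limma-voom Nuf2 did so as well (1.74, SE 0.80, unadjusted p = 0.0462).

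Kif11, the kinesin that pushes spindle poles apart, stood at 109, 106, 70 and 77.2 CPM for diabetic dams and 41, 48.7, 55.4 and 78.2 CPM for normal dams. Here the dams overlapped, and the highest values were the 2 diabetic open libraries. The log2 fold change was 0.69 (SE 0.29, unadjusted p = 0.0397, adjusted p = 0.999, edgeR). It was 1.25 (SE 0.35, unadjusted p = 0.00547, adjusted p = 0.598) in open and 0.12 (SE 0.35) in closed tissue. Without libraries 13 and 14, which again leaves closed tissue alone, it was 0.14. The interaction was -1.13 (SE 0.49, 95% interval -2.23 to -0.03), with an unadjusted p = 0.0454 and an adjusted p = 1 by edgeR. By DESeq2 and limma-voom the unadjusted p of this interaction was 0.0515 and 0.0547. Libraries 13 and 14 were also those with the most blood and endothelial markers, whose part in this difference was not tested.

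Kif15, a second kinesin that can drive pole separation, lay the other way. It stood at 488, 633, 755 and 639.9 CPM for diabetic dams and 784, 893, 762 and 764 CPM for normal dams. Library 15 came within a few CPM of the lowest normal library, and the groups did not overlap. Kif15 differed by -0.37 on the log2 scale (SE 0.18, 95% interval -0.76 to 0.02, unadjusted p = 0.0587, adjusted p = 0.999, edgeR), -0.24 without library 13, the lowest, and -0.13 without libraries 13 and 14. Cenpf, a large protein of the outer kinetochore, stood at 199.9, 249, 213 and 265 CPM for diabetic dams and 359, 291, 287 and 288 CPM for normal dams, again with no overlap. Cenpf differed by -0.42 on the log2 scale (SE 0.19, 95% interval -0.83 to -0.01, unadjusted p = 0.0454, adjusted p = 0.999, edgeR), and it was -0.30 without normal open library 09, the highest, and -0.27 without libraries 13 and 14.

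On the diabetic side 4 of 41 members had an unadjusted p below 0.05 by edgeR, namely Ube2c, Spc24, Tpx2 and Kif11, where 2.97% of all genes did, and on the normal side 1, Cenpf, where 1.58% did. Groups without overlap were found for 3 members with diabetic higher (Ube2c, Tpx2 and Spc24), against 2.48% of all genes, and for 2 with diabetic lower (Cenpf and Kif15), against 1.15%. These 6 members take part in different steps, from spindle assembly and chromosome attachment to anaphase. Neither set of shares is matched for level. With limma-voom 6 members were higher and 2 lower at an unadjusted p below 0.05, with Bub3, Nuf2 and Kif15 added. Over all 11779 genes 571 were higher and 279 lower by that test.

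**Figure D4:**
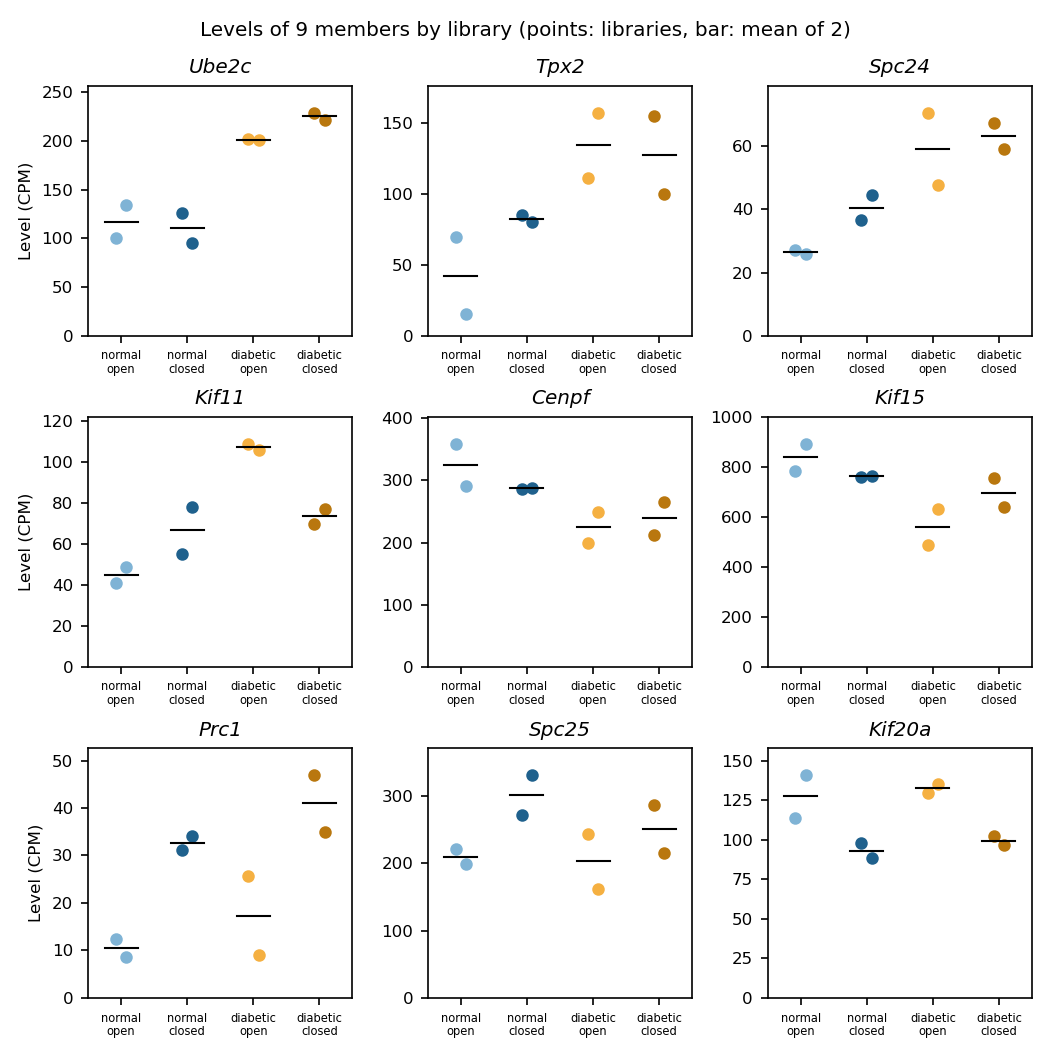
Level in CPM of 9 members in each library, as points, with a bar at the mean of the 2 libraries of a group: Ube2c, Tpx2, Spc24, Kif11, Cenpf and Kif15 for the difference between dams, and Prc1, Spc25 and Kif20a for the difference between regions. Ube2c lies at 95.5 to 134 CPM in all normal libraries and at 201 to 229 CPM in all diabetic ones, while Kif11 stands apart in the diabetic open libraries alone.

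By role, the members grouped with the anaphase-promoting complex had sums that did not overlap between dams. Their sum was 288 ± 24 CPM for diabetic dams (269.6 to 322 CPM) and 193 ± 30.4 CPM for normal dams (152 to 225 CPM; SD over 4 libraries), and Ube2c made up most of it. Of the 3 members only Ube2c lay above 0 between dams, and the median log2 fold change of the 3 was -0.08. In the same order of dams, entry kinases and cyclins summed to 3441 ± 138 and 3212 ± 478 CPM, checkpoint members to 1502 ± 168 and 1644 ± 185 CPM, and centromere and kinetochore members to 1287 ± 101 and 1394 ± 172 CPM. The passenger complex summed to 950.3 ± 115 and 1025 ± 165 CPM, spindle motors, spindle proteins and topoisomerase to 1363 ± 98.1 and 1417 ± 58.1 CPM, and cytokinesis members to 492 ± 42.7 and 466 ± 107 CPM. In these 6 groups the ranges of the dams overlapped.

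Intervals between dams were narrow for several abundant members. Ccna2 differed by 0.03 (95% interval -0.32 to 0.38), Bub1b by -0.18 (-0.54 to 0.18), Cdk1 by 0.12 (-0.30 to 0.55), Birc5 by -0.13 (-0.54 to 0.28) and Cenpa by -0.20 (-0.80 to 0.40) on the log2 scale. A 2-fold difference lies outside each of these intervals. For Nuf2 (-0.47 to 2.97), Ccnb2 (-2.09 to 0.63), Nek2 (-1.78 to 2.43) and Bub3 (-0.21 to 1.97) a 2-fold difference lies inside the interval. Incenp, the scaffold of the passenger complex, had a value of -0.48 (-1.07 to 0.11).

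The 4 differences between single groups rest on 2 libraries against 2, with the spread shared over all 8. Comparisons that use the same group share its libraries and are not independent of each other. By edgeR 0 of 41 members and 0% of all genes were called in each of the 4 and in the interaction, while 138 to 851 genes had an unadjusted p below 0.05. DESeq2 called 2 to 199 genes and limma-voom 0 or 1, with 0 members among them. In closed against open tissue of normal dams the members' median was -0.03 (18 of 41 above 0), and that of all genes 0.04. Prc1 alone had an unadjusted p below 0.05 (0.0304), and Cenpa was first on the lower side at -0.51 (SE 0.33). Within diabetic dams the median was 0.05 (25 of 41 above 0, all genes 0.03), with Prc1 and Ttk (-0.82, unadjusted p = 0.131) first on either side and no member below 0.05.

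In open tissue, diabetic minus normal, the median was 0.03 (22 of 41 above 0, all genes 0.02). Kif11, Spc24 (1.15, SE 0.42), Ube2c and Tpx2 (1.61, SE 0.60) had unadjusted p-values below 0.05 on the higher side, and Kif15 (-0.59, SE 0.25) on the lower side. In closed tissue the median was 0.08 (24 of 41 above 0, all genes 0.03), and Ube2c alone had an unadjusted p below 0.05 (0.00576). Birc5 was first on the lower side there, at -0.33 (SE 0.27). In the interaction Kif11 alone was below 0.05 by edgeR, and Cenpa was first on the other side at 1.00 (SE 0.47, unadjusted p = 0.0582). DESeq2 and limma-voom placed Cenpa alone below 0.05 (unadjusted p = 0.0483 and 0.0185) and Kif11 above it (0.0515 and 0.0547). Cenpa stood at 724, 684, 641 and 315 CPM in normal libraries 09 to 12 and at 399, 473, 641 and 549.7 CPM in diabetic libraries 13 to 16, where its value in the closed normal group rests on libraries 11 and 12 that differ 2-fold.

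Genes outside the list that act around the same steps were looked at as 9 further lists. By edgeR 0 of their tested genes were called in any comparison. Ccnh, Mki67 and Foxm1 are named here after their values were seen. Of 16 further genes of mitotic entry, such as Ccnf and Pbk, 7 were above 0 in closed against open tissue (median -0.12) and 9 in diabetic against normal dams (median 0.03). Ccnh, the cyclin of the Cdk-activating kinase, had an unadjusted p of 0.00326 between regions (-1.13 on the log2 scale, SE 0.30, adjusted p = 1, edgeR). It stood at 19.9, 24.9, 42.8 and 44.6 CPM in closed and 45.8, 80.6, 67 and 92.6 CPM in open tissue, without overlap. Of 16 subunits and regulators of the anaphase-promoting complex, 10 were above 0 between regions and 11 between dams, with medians of 0.16 and 0.09. Its subunit gene Anapc5 averaged 957 ± 50.2 CPM for diabetic and 1004 ± 143 CPM for normal dams. Ube2s, the E2 enzyme that extends the chains Ube2c begins, averaged 408 ± 52.9 and 381 ± 73.5 CPM (SD over 4 libraries), with a log2 fold change of 0.08 (SE 0.18).

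Condensin and cohesin genes (18 tested, led by Ncapg and Ncapd2) had medians of 0.13 between regions and 0.02 between dams. Kinetochore genes outside the members (23 tested, led by Cenpw and Spag5) had medians of 0.12 and -0.01, and spindle, centrosome and cytokinesis genes (30 tested, led by Ckap5 and Kif2a) medians of 0.08 and 0.19. Mki67, the proliferation marker Ki-67, averaged 109 ± 8 CPM for diabetic and 99.4 ± 23.1 CPM for normal dams. Among 20 cell cycle transcription factors, 8 were above 0 between regions (median -0.11) and 12 between dams (median 0.15). Rbbp4, a chromatin subunit that also belongs to MuvB, was the most abundant, at 855 ± 93.6 CPM for diabetic and 947 ± 206 CPM for normal dams. Foxm1, which activates genes of mitotic entry, averaged 46.4 ± 11.6 and 34.9 ± 5.91 CPM, in the same order of dams. E2f2 had 0 CPM in library 13 and 3.1 CPM in library 14, both diabetic open, 30 CPM in each diabetic closed library and 28.3 to 46.5 CPM with normal dams. DESeq2 called it between dams in open tissue (adjusted p = 0.00659) and between regions in diabetic dams (adjusted p = 0.0447), and edgeR did not (adjusted p = 0.598 and 1).

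DNA replication and S phase genes are also made by cycling cells, but earlier in the cycle. Of 39 tested, 18 were above 0 between regions (median -0.03) and 16 between dams (median -0.09). The most abundant, Rrm2 and Pcna, averaged 1784 ± 215 and 1091 ± 131 CPM for diabetic dams and 1885 ± 556 and 1058 ± 134 CPM for normal dams. Rpa2, a subunit of the single-strand binding protein, averaged 123 ± 13.3 and 47.2 ± 12.8 CPM in that order, which differ by 1.37 on the log2 scale (SE 0.26, adjusted p = 0.938, edgeR), and DESeq2 called it (adjusted p = 0.00601). Of 5 G1 cyclins and kinases, led by Ccnd2 and Cdk2, 4 were above 0 between regions (median 0.39) and 3 between dams (median 0.07). Of 4 CDK inhibitors, led by Cdkn1b and Cdkn1c, 1 was above 0 between regions (median -0.50) and 4 between dams (median 0.81). That list summed to 44.2 to 101 CPM in a library.

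The members were also compared in the sequence before their start sites, which the choice of the list did not use. Genes of late cell cycle are known for 2 promoter elements: the cell cycle genes homology region or CHR, TTTGAA, which binds the DREAM and MuvB complexes, and CCAAT boxes, which bind the factor NF-Y. Both were searched on both strands in the 300 bases from 250 before to 50 after the start site, in the RefSeq windows of GRCm38.p6. The counts were made on mm9, and no position was carried between the builds. Of the 41 members 35 had a window, and Aurkb, Ccna2, Incenp, Kif20a, Spc24 and Tpx2 had none. Bub3, Ect2 and Prc1 had 2 each, where a match in either was counted, and the first of Prc1 is shown. The following 7 windows are those of members whose groups did not overlap or whose unadjusted p was below 0.05 in a main comparison, where a window was at hand, and of Cdk1 as the most abundant member. Capitals mark both elements on either strand. A match on the strand not shown appears as its reverse complement.

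Ube2c, chr2:164769679-164769978, plus strand: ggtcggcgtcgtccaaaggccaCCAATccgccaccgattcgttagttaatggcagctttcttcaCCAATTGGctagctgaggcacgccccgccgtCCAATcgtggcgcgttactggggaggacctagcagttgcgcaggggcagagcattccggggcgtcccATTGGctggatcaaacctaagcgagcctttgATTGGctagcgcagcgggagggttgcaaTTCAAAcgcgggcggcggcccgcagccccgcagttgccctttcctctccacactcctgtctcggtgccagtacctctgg
Kif11, chr19:37376132-37376431, plus strand: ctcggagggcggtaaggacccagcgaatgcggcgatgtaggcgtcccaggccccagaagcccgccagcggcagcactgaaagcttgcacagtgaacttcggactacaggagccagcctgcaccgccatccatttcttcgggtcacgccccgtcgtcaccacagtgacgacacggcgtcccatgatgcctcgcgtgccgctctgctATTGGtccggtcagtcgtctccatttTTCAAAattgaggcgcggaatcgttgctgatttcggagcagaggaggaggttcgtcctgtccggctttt
Cenpf, chr1:189688037-189688336, minus strand: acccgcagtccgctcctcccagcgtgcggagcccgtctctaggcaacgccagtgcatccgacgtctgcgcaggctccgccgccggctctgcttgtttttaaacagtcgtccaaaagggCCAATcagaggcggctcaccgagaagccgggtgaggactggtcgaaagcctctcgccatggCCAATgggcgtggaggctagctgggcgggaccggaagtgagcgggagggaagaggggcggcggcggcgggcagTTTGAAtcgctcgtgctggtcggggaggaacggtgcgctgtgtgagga
Prc1, chr7:80294201-80294500, plus strand: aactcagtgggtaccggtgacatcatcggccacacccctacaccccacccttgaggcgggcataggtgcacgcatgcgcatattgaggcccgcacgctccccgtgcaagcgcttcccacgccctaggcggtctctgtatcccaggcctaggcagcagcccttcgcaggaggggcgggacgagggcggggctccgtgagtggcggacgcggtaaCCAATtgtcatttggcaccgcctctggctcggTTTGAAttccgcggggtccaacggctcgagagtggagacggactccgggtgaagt
Kif15, chr9:122950831-122951130, plus strand: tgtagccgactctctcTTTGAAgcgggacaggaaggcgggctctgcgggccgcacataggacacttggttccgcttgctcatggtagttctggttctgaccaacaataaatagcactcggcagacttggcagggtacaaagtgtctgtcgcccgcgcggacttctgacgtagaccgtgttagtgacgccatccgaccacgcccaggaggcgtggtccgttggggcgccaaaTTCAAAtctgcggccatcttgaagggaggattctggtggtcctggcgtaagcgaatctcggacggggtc
Spc25, chr2:69206164-69206463, minus strand: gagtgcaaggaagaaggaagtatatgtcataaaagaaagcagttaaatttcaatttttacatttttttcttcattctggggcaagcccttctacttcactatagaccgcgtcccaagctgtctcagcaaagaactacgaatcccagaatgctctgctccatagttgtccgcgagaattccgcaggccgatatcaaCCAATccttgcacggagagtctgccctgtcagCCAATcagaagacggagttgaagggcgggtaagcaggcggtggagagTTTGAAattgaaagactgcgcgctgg
Cdk1, chr10:69352863-69353162, minus strand: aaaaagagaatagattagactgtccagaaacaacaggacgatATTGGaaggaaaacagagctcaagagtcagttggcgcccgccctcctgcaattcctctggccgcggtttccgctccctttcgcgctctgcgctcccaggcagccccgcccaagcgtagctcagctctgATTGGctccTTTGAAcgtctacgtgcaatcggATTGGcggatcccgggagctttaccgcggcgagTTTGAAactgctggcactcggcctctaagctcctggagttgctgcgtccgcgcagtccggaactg

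The window of Ube2c held 6 CCAAT boxes, the pair at -186 and -183 overlapping on opposite strands, and 1 CHR match at -29 (positions of the first base, counted from the start site). Kif11 and Prc1 each held 1 of both, with the CHR at -19 and -5. Cenpf held 2 CCAAT boxes and a CHR at 3, and Cdk1 3 CCAAT boxes and 2 CHR matches at -71 and -15. Spc25 held 2 CCAAT boxes and a CHR at 25, and Kif15 held 2 CHR matches, at -234 and -19, and 0 CCAAT boxes.

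A CHR match was found in 26 of 35 windows of members, or 74.3%. The share was 20.2% over all 27025 genes of the promoter table and 13.5% over 8041 other genes tested in the counts. The variant TTCGAA was in 3 windows of members (8.57%, against 1.8% of the table). CCAAT was in 27 (77.1%, against 41.1% of the table and 43.2% of the other tested genes). Both TTTGAA and CCAAT occurred in 22 windows of members, or 62.9%, against 7.97% of the table and 5.56% of the other tested genes. Mitosis genes are known for these elements, so the shares describe the list, and a match is a run of letters and not a binding site.

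Positions were taken from the match nearest the start site, in windows that end 50 bases after it, which favours short distances in any gene. The CHR match nearest the start site lay between -103 and 41, with a median of 7.0, and within 50 bases of the start site in 25 of 26 members (96.2%). Among the 1083 other tested genes with a match 25.5% had one that close, and their median was -128.0. The nearest CCAAT lay between -113 and 14, with a median of -21.0, and within 50 bases in 21 of 27 (77.8%), against 40.6% of the 3473 other tested genes with a box. The 9 members with a window and no TTTGAA were Birc5, Bub1, Ccnb1, Cenpe, Mad2l1, Nek2, Nuf2, Nusap1 and Zwint. In the counts, the 26 with TTTGAA had a median log2 fold change of -0.03 between dams (12 above and 14 below 0) and -0.00 between regions, and the 9 without had 0.20 and -0.05.

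**Figure D5:**
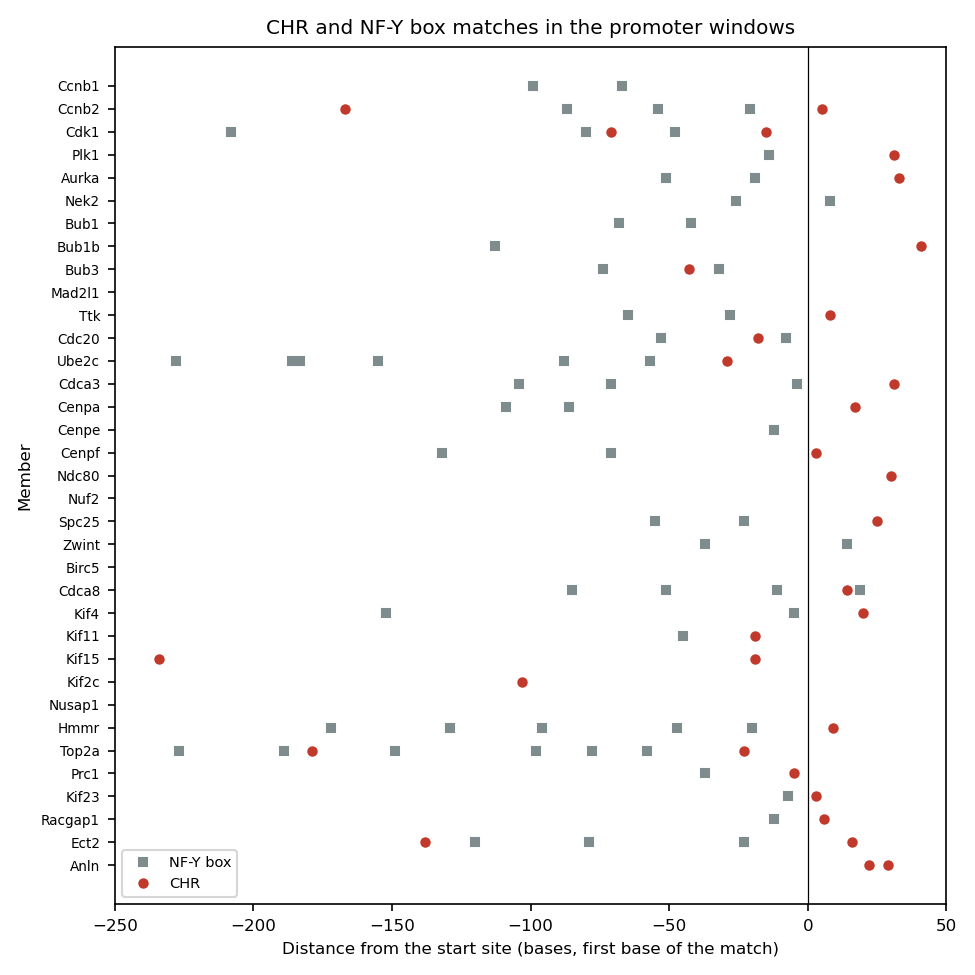
Position of each CHR match (red circles) and each CCAAT or NF-Y box (grey squares) in the promoter windows of 35 members, in bases from the start site, from 250 before to 50 after it. For Bub3, Ect2 and Prc1, which had several windows, the first is drawn. In 25 of the 26 members with a CHR match one lies within 50 bases of the start site, and the CCAAT boxes mostly lie before it.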

How the data were processed

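The 8 deposited tables hold raw tag counts per gene, 1 table per library, from SOLiD SAGE libraries made of 7 ng of Trizol-extracted RNA per the labels' protocols. Per the submitters' processing notes the build used was mm9. The aligner, the counter and the handling of tags that fit several genes were not given in the sources used here. The members and all gene lists were chosen with earlier results of these data known.

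Counts were fitted as deposited, over all genes, with edgeR 4.0.16 (R 4.3.3): TMM scaling, a filter for expressed genes (minimum count 10, minimum total 15), the quasi-likelihood test and Benjamini-Hochberg adjustment over 11779 genes, with calls at an adjusted p below 0.05. The main comparisons used an additive model of dam and region, and single groups and the interaction used a model of 4 groups. Standard errors and 95% intervals are those implied by the test. Levels are CPM of the library total. DESeq2 1.42.0, limma 3.58.1 (voom), other scalings and filters, and leaving out each library were alternatives. The fits were tested on simulated data first.

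All members may be named by role. Full values were given for members called by any tool, with an unadjusted p below 0.05 or groups that did not overlap in a main comparison, the 6 most abundant, and those with a library at 0. The 3 smallest p-values in each direction of a main comparison, and the smallest of each other contrast, were given as values. In other lists the rule took genes called by edgeR or DESeq2, or else the 2 most abundant. Promoter windows came from RefSeq on GRCm38.p6, and tags were predicted from GENCODE M21 transcripts, with Python 3.11.15 and pandas 2.3.3. Sequence from 1 chromosome was not used here.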

Additional observations from a re-analysis of the deposited data

Results flagged for a closer look

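In each group of 4 libraries that the main comparisons use (the dams and the regions), the highest and the lowest library of each member were tested for standing apart from the other 3 (Dixon's test, 95% critical value 0.829). Of 164 groups 9 were marked, in 7 members, and chance alone marks about 1 in 20.

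Ccnb1 was marked in both comparisons. Among normal dams library 12 was low at 112 CPM, with the others at 196 to 213 CPM, and among open libraries library 13 was high at 261 CPM, with the next at 201 CPM. Kif15 was marked in both as well, with library 10 high among normal dams at 893 CPM (others 762 to 784 CPM) and library 16 low among closed tissue at 639.9 CPM (others 755 to 764 CPM). Cenpf was high in library 09 among normal dams, at 359 CPM, where the others stood at 287 to 291 CPM.

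Among diabetic dams Ndc80 was high in library 13 at 37.3 CPM (others 27.6 to 29 CPM), and Top2a, the topoisomerase that untangles chromosomes, was high in library 14 at 96.2 CPM (others 74.8 to 77 CPM). Mad2l1, a checkpoint inhibitor of Cdc20, was low in library 14 among open tissue at 213 CPM (others 235 to 239.8 CPM). Hmmr, a spindle pole protein, was high in library 15 among closed tissue at 99.6 CPM (others 75.8 to 76.7 CPM).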

How the results depend on the processing

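The main fits called 0 genes in every comparison, and no member named for a difference changed its direction under any alternative run. The members' median, close to 0, ranged from -0.09 to 0.04 between regions and from -0.04 to 0.12 between dams when 1 library was left out. DESeq2 called 9 genes between regions, 37 between dams, 33 between regions in normal and 47 in diabetic dams, 199 between dams in open and 2 in closed tissue, and 22 in the interaction. With no filter on low counts these numbers were 29, 89, 22, 41, 138, 11 and 23. limma-voom called 1 gene each between regions in diabetic dams, between dams in open tissue and in the interaction. Leaving out 1 library at a time gave 0 to 3 genes between regions, 0 to 2 between dams, 0 to 18 and 0 to 21 between regions in normal and in diabetic dams, 0 to 61 and 0 to 3 between dams in open and in closed tissue, and 0 to 9 in the interaction. The cause was not tested.

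Among members, DESeq2 called 1 between dams, Ube2c. With no filter 1 was called between dams and 1 in open tissue, both times Tpx2, and leaving out 1 library gave 0 to 1 in open tissue, Tpx2 without normal open library 09. Without single libraries the log2 fold change of Ube2c ranged from 0.80 to 0.99 and that of Prc1 between regions from 1.26 to 1.86. Leaving out libraries 10 and 12, or 13 and 14, was chosen after the data were seen, and each called 0 genes. No paired analysis was possible because no replicate number occurs in more than 1 group. The lowest members, such as Cdca8 with at most 36 counts, are limited by depth.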
